A study of Mus musculus with 6 samples.

Results

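The genes described here encode the respiratory chain, the 5 protein complexes of the inner mitochondrial membrane (complexes I to V) and the mobile carrier cytochrome c. Members were the rows of the deposited count table whose symbol begins with Nduf, Uqcr, Cox4 to Cox8, Atp5 or mt-, or is Sdha, Sdhb, Sdhc, Sdhd or Cycs, and whose counts summed to 60 or more over all libraries. There were 98 members among the 16840 genes of the table. Of these, 86 are nuclear genes and 12 are protein-coding genes of mitochondrial DNA. Among the nuclear members, 79 encode subunits or cytochrome c, and the other 7 (Ndufaf1, Ndufaf2, Ndufaf3, Ndufaf4, Atp5s, Atp5sl and Cox4nb) encode assembly factors or proteins outside the complexes. Another 4 genes matched by symbol and fell under the minimum: Cox4i2 with 20 counts in all, Atp5l-ps1 with 4, Atp5l2 with 3 and Ndufa4l2 with 2. The lowest member was Cox7a1, with 173 counts. All 98 members passed the filter on low counts and were among the 12340 genes tested.

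The cells were wild-type alveolar macrophages of the mouse, which live in the air sacs of the lung, sampled on day 2. There were 3 groups of 2 libraries: GM-CSF with a treatment that the labels call DON, without a full name or a dose; GM-CSF alone; and no GM-CSF. GM-CSF, granulocyte-macrophage colony-stimulating factor, is the cytokine on which alveolar macrophages depend for their development. The labels also name a cell line, AM. They leave out whether the cells came straight from animals and whether each replicate was its own culture or animal. The p-values therefore reflect the spread among these libraries alone, which may be technical. Total counts were between 28321986 and 35196387 per library. Each of 5 macrophage and 9 alveolar macrophage markers exceeded 1 CPM (a gene's count once libraries are scaled to equal depth) in at least 1 library, and none of the 3 T, B or NK cell markers in the table did. The summed macrophage markers were 22400 and 20800 CPM with GM-CSF and DON, 19300 and 19100 CPM with GM-CSF, and 40800 and 40500 CPM without GM-CSF. Most of this was Lyz2, at 19700 and 18200, 17100 and 17100, and 36600 and 36600 CPM in the same order. All 5 markers were lower in both libraries with GM-CSF than without it. With DON against GM-CSF alone, 3 were higher (Cd68, Lyz2 and Emr1), 1 was lower (Csf1r) and 1 overlapped. The summed alveolar macrophage markers were 15000 and 14800 CPM with GM-CSF and DON, 11900 and 12000 CPM with GM-CSF, and 8980 and 8630 CPM without GM-CSF. That order rested on Chi3l3, and without it the sums were 7260 and 7190 CPM with GM-CSF and DON, 6350 and 6450 CPM with GM-CSF, and 7170 and 6810 CPM without GM-CSF. With GM-CSF against no GM-CSF, both libraries were higher for 2 of the 9 markers (Car4 and Chi3l3), lower for 5 (Siglec5, Marco, Pparg, Fabp4 and Cd9) and overlapping for 2. With DON against GM-CSF alone, both libraries were higher for 6 of the 9 and lower for 3 (Marco, Car4 and Ear2). The 7 epithelial markers summed to 26.5 and 27.0 CPM with GM-CSF and DON, 96.6 and 102 CPM with GM-CSF, and 19.4 and 16.4 CPM without GM-CSF. Nearly all of this was Cdh1 in the 4 libraries with GM-CSF, and without GM-CSF Cdh1 made up 16.2 and 11.5 CPM of it. Without Cdh1 the sums were between 0.829 and 1.54 CPM in the 4 libraries with GM-CSF and 3.27 and 4.90 CPM without GM-CSF. Sftpc was at most 0.0297 CPM. The 5 dendritic cell markers summed to 25.2 and 25.4 CPM with GM-CSF and DON, and 27.9 and 27.5 CPM with GM-CSF. Without GM-CSF they summed to 8.82 and 8.65 CPM. Both libraries with DON were higher than with GM-CSF alone for 1 marker (Clec9a), lower for 2 (Zbtb46 and Batf3) and overlapping for 2. Clec9a had 16.4 and 14.6 CPM with GM-CSF and DON, against 8.54 and 8.46 CPM with GM-CSF alone. Zbtb46 had 2.83 and 4.42 CPM with GM-CSF and DON, against 8.04 and 8.46 CPM with GM-CSF alone. The granulocyte marker S100a8 had 3.78 and 3.04 CPM with GM-CSF and DON, 4.34 and 3.76 CPM with GM-CSF, and 16.0 and 17.2 CPM without GM-CSF. These marker levels moved with the groups, and their part in the results below was not tested.

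Complexes I and II pass electrons from NADH and succinate to ubiquinone, complex III passes them on to cytochrome c, and complex IV hands them to oxygen. Complexes I, III and IV pump protons as they do so, and complex V, the ATP synthase, uses the proton gradient to make ATP. The chain is built from both genomes: a small set of membrane proteins of complexes I, III, IV and V is made inside the organelle from mitochondrial DNA, while the remaining subunits, and the whole of complex II, come from nuclear genes and are imported. Mitochondrial DNA is copied into long RNAs that cover many genes and are then cut at the tRNAs between them, so that levels of single mitochondrial mRNAs depend on cutting and decay as well as on transcription. In alveolar macrophages, oxidative metabolism is known to accompany the handling of surfactant lipids.

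Promoters of 4 nuclear members are shown because they belong to genes that moved in opposite directions in the results below: Cycs, Atp5k and Atp5g1, which were highest with GM-CSF alone, and Atp5g2, which was highest with GM-CSF and DON. They are taken from RefSeq (GRCm38.p6), are given 5′ to 3′ on the strand of the gene, and run over 300 bases, 250 before the start site and 50 after it. Capitals mark the letters GCATGCGC or their reverse complement GCGCATGC, the core of the site bound by NRF1 (nuclear respiratory factor 1), a transcription factor of respiratory chain genes. The Cycs promoter is chr6:50566520-50566819, minus strand, that of Atp5k is chr5:108434350-108434649, minus strand, that of Atp5g1 is chr11:96075582-96075881, minus strand, and that of Atp5g2 is chr15:102670998-102671297, minus strand.
Cycs: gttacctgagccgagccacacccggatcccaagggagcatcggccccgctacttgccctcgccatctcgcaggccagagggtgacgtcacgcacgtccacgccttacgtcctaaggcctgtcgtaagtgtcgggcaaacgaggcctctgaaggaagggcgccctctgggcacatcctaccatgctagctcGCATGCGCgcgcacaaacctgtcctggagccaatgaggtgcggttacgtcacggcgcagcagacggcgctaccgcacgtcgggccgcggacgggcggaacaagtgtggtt
Atp5k: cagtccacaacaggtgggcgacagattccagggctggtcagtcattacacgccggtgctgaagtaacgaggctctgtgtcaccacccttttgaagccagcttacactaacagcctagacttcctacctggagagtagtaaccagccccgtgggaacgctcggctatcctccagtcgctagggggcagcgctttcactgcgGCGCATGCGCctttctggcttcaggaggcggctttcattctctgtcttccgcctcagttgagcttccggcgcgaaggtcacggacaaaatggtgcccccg
Atp5g1: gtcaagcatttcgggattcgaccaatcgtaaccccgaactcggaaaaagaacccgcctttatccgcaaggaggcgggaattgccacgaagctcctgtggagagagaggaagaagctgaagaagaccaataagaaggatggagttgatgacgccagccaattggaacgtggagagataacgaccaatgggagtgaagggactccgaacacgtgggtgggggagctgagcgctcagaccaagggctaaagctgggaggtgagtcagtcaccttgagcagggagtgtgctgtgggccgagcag
Atp5g2: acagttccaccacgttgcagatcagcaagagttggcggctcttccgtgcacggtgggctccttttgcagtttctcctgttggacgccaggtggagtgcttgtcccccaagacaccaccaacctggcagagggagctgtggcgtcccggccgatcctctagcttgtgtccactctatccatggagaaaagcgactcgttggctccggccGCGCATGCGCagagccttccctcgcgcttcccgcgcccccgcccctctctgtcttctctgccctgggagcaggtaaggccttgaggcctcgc
In Cycs the motif begins at position -60 relative to the start site. In Atp5k it begins at position -50 and in Atp5g2 at position -42, in both as a palindrome in which the letters of the 2 strands overlap. The Atp5g1 window holds none of the 3 motifs searched. Both a gene that was highest with GM-CSF alone (Atp5k) and one that was highest with GM-CSF and DON (Atp5g2) therefore carry the same 10 letters. A RefSeq promoter was matched for 67 of the 79 nuclear subunit genes. The NRF1 letters, searched on both strands, were in 11 of these (16.4%), against 3.05% of all 27025 genes of the promoter table. The letters CCGGAAGT, the core site of GABPA, another regulator of these genes, were in 5 (7.46%), against 4.31% of all genes. AAGATGGC, a site of the factor YY1, was in 10 (14.9%), against 3.19% of all genes. The 27025 genes include many that were not among the 12340 tested here, and no share over the tested genes was computed. Whether these shares are particular to the respiratory chain was therefore not tested. These are matches of letters and do not show binding.

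The first question was how the chain's mRNAs are distributed over both genomes. Per unit of length, mitochondrial mRNAs were far more abundant than nuclear ones. In FPKM (fragments per kilobase scaled for depth, computed by the authors), the median over the 12 mitochondrial members was 2160 with GM-CSF and DON, 2710 with GM-CSF and 2970 without GM-CSF. The median over the 79 nuclear subunit genes was 125, 140 and 113 FPKM in the same order of groups. The gene lengths implied by these FPKM are shorter than the annotated ones, for instance 52 against 204 bases for mt-Atp8, which raises the FPKM of short genes. With counts per kilobase of annotated length, mt-Co1, the catalytic core subunit of complex IV, was at 5480 and 5100 with GM-CSF and DON, 4160 and 3520 with GM-CSF, and 6900 and 6250 without GM-CSF. By the same measure mt-Nd5 and mt-Nd6 of complex I were the lowest mitochondrial genes with GM-CSF, at 678 and 583 and at 661 and 552, which overlap. Of the nuclear subunit genes, Atp5b, the catalytic beta subunit of complex V, had the highest level: 742 ± 52.1 FPKM with GM-CSF and DON, 943 ± 21.2 with GM-CSF and 546 ± 11.3 without GM-CSF (SD, n = 2). Median FPKM of the nuclear genes by complex, with GM-CSF, was 92.3 for complex I, 131 for II, 223 for III, 260 for IV and 259 for V. Cycs was at 39.9 FPKM with GM-CSF.

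The balance of the 2 genomes differed between all 3 groups. The mitochondrial genes took 75.4% and 75.1% of the counts of structural chain genes with GM-CSF and DON, 72.0% and 69.4% with GM-CSF, and 82.9% and 81.9% without GM-CSF. The groups did not overlap, and the libraries without GM-CSF were the highest. The nuclear subunit genes summed to 8411 and 7998 CPM with GM-CSF and DON, 9842 and 9452 CPM with GM-CSF, and 7155 and 7285 CPM without GM-CSF, again without overlap but with GM-CSF alone highest. The mitochondrial genes summed to 25710 and 24150 CPM with GM-CSF and DON, 25350 and 21450 CPM with GM-CSF, and 34700 and 32910 CPM without GM-CSF. Here the libraries with GM-CSF alone overlapped those with DON, and all 4 stood below those without GM-CSF. With 2 libraries against 2, an exact two-sided permutation test of such a sum cannot give a p below 0.333, so no test is given for the sums. In bulk RNA, fewer cells of a type and less RNA per cell cannot be told apart.

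**Figure D1:**
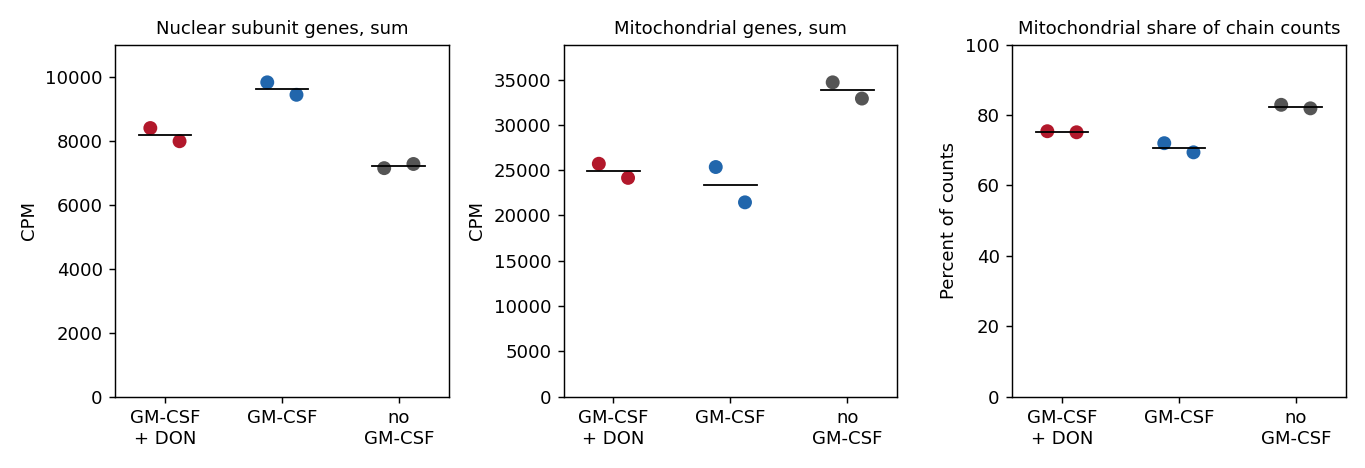
Summed CPM of the 79 nuclear subunit genes (left), summed CPM of the 12 mitochondrial genes (middle) and the mitochondrial share of chain counts in percent (right), with 1 point per library and a line at each group mean (2 libraries). The nuclear sum is highest with GM-CSF alone, and the mitochondrial sum and share are highest without GM-CSF.

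GM-CSF against no GM-CSF asks what the cytokine changed. Nuclear subunit genes were higher with GM-CSF and mitochondrial genes lower. In edgeR's quasi-likelihood test, with p-values adjusted by Benjamini-Hochberg across the whole table, 58 of the 79 nuclear subunit genes were higher and 2 lower at an adjusted p under 0.05. Over all tested genes 56.8% were called, 27.5% higher and 29.3% lower. Of the 12 mitochondrial genes, 11 were lower and 1 was higher. The median log2 fold change was 0.37 over the nuclear subunit genes and -0.48 over the mitochondrial genes, beside -0.02 over all genes tested. The difference of the medians of all nuclear and mitochondrial members was 0.83. None of the 7 assembly factors and other proteins rose. Of these, 2 (28.6%) fell, near the 29.3% lower over all tested genes: Ndufaf3 (-0.40 ± 0.12, adjusted p = 0.0162) and Cox4nb (-0.38 ± 0.05, adjusted p = 0.000164). Cox4nb is an older symbol of Emc8, a subunit of an endoplasmic reticulum complex and not of complex IV. The Ndufaf3 call was lost without GM-CSF replicate 1 (-0.23, adjusted p = 0.141), without replicate 2 of the group without GM-CSF (-0.39, adjusted p = 0.0508) and with DESeq2 (-0.39, adjusted p = 0.0542).

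The rise reached nuclear genes of each complex. In complex V all 15 nuclear genes were higher (median log2 fold change 0.43). In complex III 7 of 8 were higher (0.42), in complex IV 10 of 15 higher and 2 lower (0.45), in complex II 3 of 4 higher (0.29), and in complex I 22 of 36 higher (0.27), with no gene lower in complexes I, II and III. Within complex I, 4 of 7 genes of the catalytic core and 18 of 29 accessory genes were higher, with medians of 0.20 and 0.30. Whether the complexes differ from each other was not tested.

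Cycs, cytochrome c itself, had 114 and 115 CPM with GM-CSF, against 61.3 and 67.1 CPM without it. This was 1.78-fold higher (log2 fold change 0.83 ± 0.06 SE, adjusted p = 7.78e-07). Atp5b had 1220 and 1200 CPM with GM-CSF, against 693 and 710 CPM without it (0.79 ± 0.04, adjusted p = 6.87e-08). Uqcrfs1, the Rieske iron-sulfur protein of complex III, had 124 and 120 CPM with GM-CSF, against 67.8 and 68.6 CPM without it (0.84 ± 0.05, adjusted p = 1.98e-07). None of these overlapped between the groups. Atp5k, the e subunit of complex V, had 32.7 and 25.5 CPM with GM-CSF, against 15.5 and 17.0 CPM without it (0.85 ± 0.11, adjusted p = 0.000111). Uqcrq of complex III had 111 and 103 CPM with GM-CSF, against 64.5 and 63.5 CPM without it (0.74 ± 0.06, adjusted p = 2.39e-06). Cox5b, which binds zinc in complex IV, had 192 and 185 CPM with GM-CSF, against 116 and 116 CPM without it (0.70 ± 0.05, adjusted p = 1.41e-06). In complex I the largest rises were in the accessory genes Ndufa5 (0.61 ± 0.08, adjusted p = 0.000143) and Ndufb6 (0.58 ± 0.07, adjusted p = 4.22e-05).

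Complex II, which also works in the citric acid cycle, was uneven. Sdhd, a membrane anchor, had 140 and 132 CPM with GM-CSF, against 81.8 and 89.0 CPM without it (0.67 ± 0.05, adjusted p = 3.2e-06). Sdhc, the other anchor, rose by 0.41 ± 0.05 (adjusted p = 9.63e-05) and the flavoprotein Sdha by 0.18 ± 0.04 (adjusted p = 0.00318). The iron-sulfur protein Sdhb had 135 and 126 CPM with GM-CSF, against 132 and 135 CPM without it, and its libraries overlapped (-0.03 ± 0.05, adjusted p = 0.665).

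**Figure D2:**
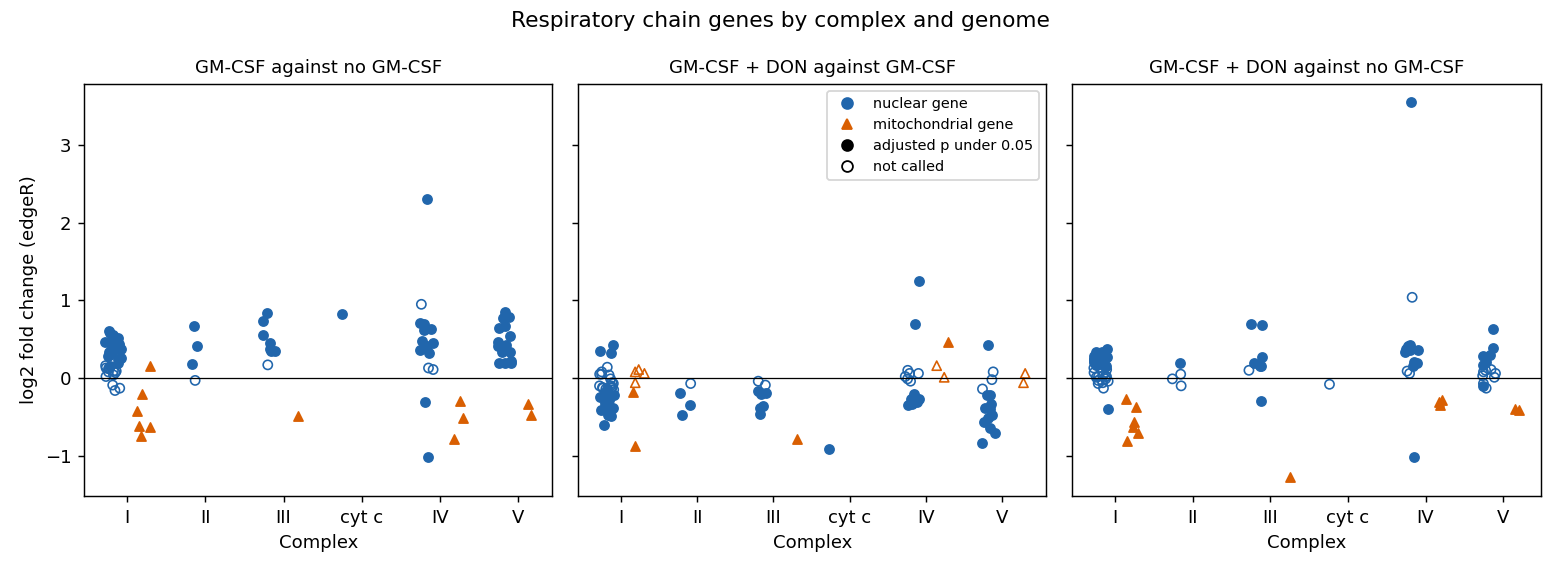
Log2 fold changes (edgeR) of the 91 structural members by complex in the 3 comparisons, for nuclear genes (blue circles) and mitochondrial genes (orange triangles), with filled symbols at an adjusted p under 0.05; points are spread sideways for clarity. With GM-CSF against no GM-CSF nuclear genes lie mostly above 0 (median 0.37) and mitochondrial ones mostly below (median -0.48); with DON against GM-CSF nuclear genes lie mostly below 0 (median -0.20).

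The mitochondrial genes differed in how far they fell. The largest fall was in mt-Co1, with 6430 and 5430 CPM with GM-CSF, against 10700 and 9660 CPM without it (-0.78 ± 0.07, adjusted p = 1.17e-05). The complex I genes mt-Nd5, mt-Nd6 and mt-Nd4 fell by 0.74, 0.63 and 0.62 on the log2 scale. mt-Nd6 is the 1 member read from the opposite strand of mitochondrial DNA (chrM:13552-14070, minus strand, GRCm38). mt-Co2, mt-Cytb, mt-Atp6 and mt-Nd2 fell by 0.51, 0.49, 0.47 and 0.43. mt-Co3 fell by 0.29 (adjusted p = 0.000835). mt-Atp8 (-0.34 ± 0.13, adjusted p = 0.0479) and mt-Nd1 (-0.21 ± 0.08, adjusted p = 0.0389) were near the threshold. Both lost their call with DESeq2 (adjusted p = 0.225 and 0.183), with the 2 groups fitted alone (-0.32 and -0.19) and without GM-CSF replicate 2 (-0.11 and -0.09). mt-Atp8 lost it also with another scaling (RLE, adjusted p = 0.0532), without replicate 1 of the group without GM-CSF (-0.26, adjusted p = 0.138) and without either DON library (-0.34 and -0.35), and mt-Nd1 also without replicate 2 of the group without GM-CSF (-0.18, adjusted p = 0.095).

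One mitochondrial gene went the other way. mt-Nd3, a small subunit of complex I, had 434 and 416 CPM with GM-CSF, against 374 and 385 CPM without it (0.16 ± 0.05, adjusted p = 0.0109). Its libraries did not overlap, but the call was lost without GM-CSF replicate 1 (0.13, adjusted p = 0.0838) or replicate 1 of the group without GM-CSF (0.14, adjusted p = 0.0559). As a ratio to mt-Co3, the neighbouring gene upstream, mt-Nd3 stood at 0.135 and 0.140 with GM-CSF, against 0.103 and 0.0988 without it.

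GM-CSF with DON against GM-CSF asks what DON changed in stimulated cells. This comparison uses the same GM-CSF libraries as the one before, so opposite signs in the 2 comparisons are not independent. Of the 79 nuclear subunit genes, 45 were lower with DON and 6 higher. Over all tested genes 57.6% were called, 28.8% higher and 28.8% lower. The median log2 fold change of the nuclear subunit genes was -0.20, beside 0.01 over all genes. Among the 12 mitochondrial genes 3 were lower, 1 was higher and 8 were not called, with a median of 0.03. The difference of the medians of all nuclear and mitochondrial members was -0.21, and it was -0.35 without GM-CSF replicate 1.

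Complex V again stood with 11 of 15 nuclear genes lower and 1 higher (median -0.39). In complex II 3 of 4 were lower (-0.27), in complex III 6 of 8 lower (-0.20), in complex I 17 of 36 lower and 3 higher (-0.14), and in complex IV 7 of 15 lower and 2 higher (-0.04). Cycs had 59.6 and 61.9 CPM with GM-CSF and DON, against 114 and 115 CPM with GM-CSF alone. It was 1.88-fold lower with DON (-0.91 ± 0.06, adjusted p = 7.26e-07) and had the largest fall among the nuclear members. Atp5k had 16.8 and 15.9 CPM with DON, against 32.7 and 25.5 CPM with GM-CSF alone (-0.84 ± 0.11, adjusted p = 0.000132). Both genes were about as high with DON as without GM-CSF, where Cycs had 61.3 and 67.1 CPM and Atp5k 15.5 and 17.0 CPM.

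Other falls reached each complex. Ndufa5 had 27.4 and 24.1 CPM with DON, against 39.8 and 38.7 CPM with GM-CSF alone (-0.61 ± 0.08, adjusted p = 0.000165). Ndufs8, an iron-sulfur protein of the complex I core, had 33.1 and 28.5 CPM with DON, against 41.8 and 44.5 CPM with GM-CSF alone (-0.49 ± 0.08, adjusted p = 0.000448). Ndufs8 was not called for GM-CSF itself (0.09 ± 0.08, adjusted p = 0.37). Sdhd fell by 0.47 ± 0.05 (adjusted p = 4.3e-05) and Sdhc by 0.35 ± 0.05 (adjusted p = 0.000256). In complex III, the small subunits Uqcr11 (-0.46 ± 0.07, adjusted p = 0.000428) and Uqcr10 (-0.39 ± 0.06, adjusted p = 0.000265) fell most, and Uqcrfs1 only by 0.16 ± 0.04 (adjusted p = 0.0113), a call lost without GM-CSF replicate 1 (-0.14, adjusted p = 0.0782). In complex IV, Cox6b1 (-0.35 ± 0.05, adjusted p = 0.000295) and Cox5b (-0.34 ± 0.05, adjusted p = 0.000234) fell most.

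The 6 nuclear subunit genes that rose with DON were Ndufa1, Ndufa6, Ndufa7, Cox6a2, Cox7a2l and Atp5g2. Ndufa1, a small membrane subunit of complex I, had 47.1 and 41.8 CPM with DON, against 31.5 and 34.5 CPM with GM-CSF alone (0.43 ± 0.07, adjusted p = 0.000548). Ndufa7 (0.35 ± 0.07, adjusted p = 0.00126) and Ndufa6 (0.32 ± 0.08, adjusted p = 0.00605) are likewise accessory subunits. The Ndufa6 call was lost without GM-CSF replicate 1 (0.20, adjusted p = 0.0539) or DON replicate 1 (0.28, adjusted p = 0.0512). None of these 3 complex I genes was called for GM-CSF itself. Of the 7 other nuclear members, Atp5sl, also named Dmac2, rose with DON: 23.6 and 24.9 CPM, against 16.4 and 17.5 CPM with GM-CSF alone (0.52 ± 0.07, adjusted p = 0.000184).

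The mitochondrial genes did not move together with DON. mt-Cytb, the cytochrome b of complex III and the last protein gene in genome order (chrM:14145-15288, GRCm38), had 1070 and 993 CPM with GM-CSF and DON, against 1950 and 1610 CPM with GM-CSF alone (-0.79 ± 0.09, adjusted p = 3.36e-05). mt-Nd3 (chrM:9459-9806) had 238 and 224 CPM with GM-CSF and DON, against 434 and 416 CPM with GM-CSF alone (-0.88 ± 0.05, adjusted p = 2.99e-07). mt-Co1 (chrM:5328-6872) had 8460 and 7880 CPM with GM-CSF and DON, against 6430 and 5430 CPM with GM-CSF alone (0.46 ± 0.07, adjusted p = 0.000431). The libraries of the 2 groups did not overlap for any of these genes, and the 3 calls held in every alternative run, with ranges of -0.92 to -0.64 for mt-Cytb, -0.92 to -0.83 for mt-Nd3 and 0.35 to 0.59 for mt-Co1.

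Ratios within a library do not depend on how libraries are scaled. Those given here use genes called above in the same libraries, so they restate the unequal change and are not a separate test. The ratio of mt-Cytb to mt-Co1 counts was 0.127 and 0.126 with GM-CSF and DON, 0.304 and 0.295 with GM-CSF, and 0.249 and 0.244 without GM-CSF. The ratio of mt-Nd3 to mt-Co3 was 0.0742 and 0.0748 with GM-CSF and DON, 0.135 and 0.140 with GM-CSF, and 0.103 and 0.0988 without GM-CSF. For both ratios the 3 groups did not overlap, and the libraries with DON were lowest and those with GM-CSF alone highest. mt-Cytb made up 4.16% and 4.11% of mitochondrial counts with GM-CSF and DON, 7.71% and 7.48% with GM-CSF, and 7.66% and 7.16% without GM-CSF.

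Calls of most other mitochondrial genes changed in this comparison when 1 library was left out. mt-Nd4 was called lower (-0.18 ± 0.07, adjusted p = 0.0412), with 1660 and 1610 CPM with DON, against 2000 and 1710 CPM with GM-CSF alone. That call was lost without GM-CSF replicate 1 (-0.07, adjusted p = 0.368), without DON replicate 1 (-0.21, adjusted p = 0.0935) and without DON replicate 2 (-0.15, adjusted p = 0.198). The 8 genes not called, mt-Nd1, mt-Nd2, mt-Nd5, mt-Nd6, mt-Co2, mt-Co3, mt-Atp6 and mt-Atp8, had log2 fold changes between -0.06 and 0.16. Without GM-CSF replicate 1, 7 mitochondrial genes were higher and 2 lower: mt-Co2 (0.32), mt-Atp8 (0.23), mt-Atp6 (0.22), mt-Nd5 (0.22), mt-Nd6 (0.21) and mt-Nd2 (0.18) were then called higher beside mt-Co1. Without GM-CSF replicate 2, 1 was higher and 5 lower, with mt-Atp8 (-0.30) and mt-Nd1 (-0.18) then called lower. mt-Co3 was not called in any alternative (-0.04 to 0.06). The GM-CSF replicates differed in total mitochondrial level, at 25350 and 21450 CPM.

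**Figure D3:**
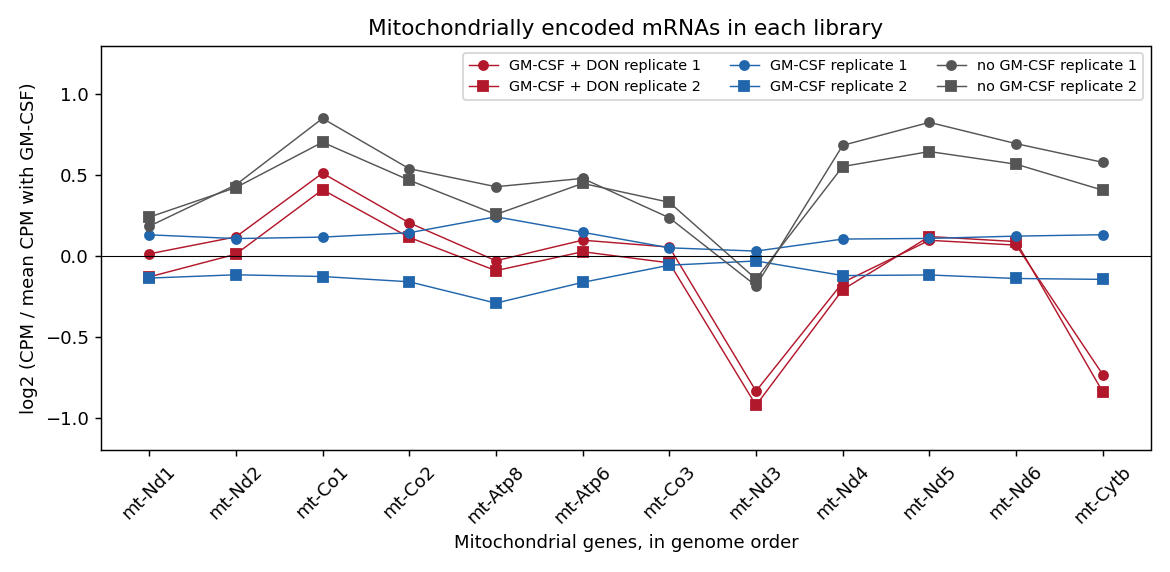
Log2 of CPM over the mean CPM with GM-CSF, for the 12 mitochondrial genes in genome order, with 1 line per library (circles replicate 1, squares replicate 2). Both libraries with DON dip at mt-Nd3 (238 and 224 CPM) and mt-Cytb (1070 and 993 CPM), while the libraries without GM-CSF lie above 0 at every gene but mt-Nd3.

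GM-CSF plus DON, set against no GM-CSF, shows where the treated cells stood relative to unstimulated ones. Nuclear subunit genes were more often higher than lower: 42 of 79 were higher and 4 lower (median log2 fold change 0.17). Over all tested genes 55.6% were called, 27.2% higher and 28.4% lower, with a median of 0.01. All 12 mitochondrial genes were lower (median -0.41). By complex, 11 of 15 nuclear genes of complex IV were higher and 1 lower (median 0.36), 6 of 8 of complex III higher and 1 lower (0.17), 18 of 36 of complex I higher and 1 lower (0.16), 6 of 15 of complex V higher and 1 lower (0.10), and 1 of 4 of complex II higher (0.02). The counts here rested on single libraries: over all 86 nuclear members, 43 higher and 5 lower became 23 higher and 6 lower without DON replicate 1.

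The complex III genes Uqcrq (0.70 ± 0.06, adjusted p = 3.96e-06) and Uqcrfs1 (0.68 ± 0.05, adjusted p = 9.06e-07) were among the largest rises in this comparison. Uqcrfs1 had 109 and 110 CPM with GM-CSF and DON, 124 and 120 CPM with GM-CSF, and 67.8 and 68.6 CPM without GM-CSF, so that its libraries with DON lay close to those with GM-CSF alone. Atp5g3, described below, and Cycs (-0.08 ± 0.06, adjusted p = 0.26) were not called. In complex I, Ndufa11 (0.38 ± 0.06, adjusted p = 0.000358) and Ndufv1, which holds the NADH-binding site (0.34 ± 0.05, adjusted p = 0.000194), were higher, and neither was called for DON against GM-CSF. In complex IV, Cox8a (0.42 ± 0.05, adjusted p = 4.29e-05) and Cox6a1 (0.41 ± 0.05, adjusted p = 3.42e-05) were higher. The 4 nuclear subunit genes that were lower were Ndufs8 (-0.40 ± 0.08, adjusted p = 0.00167), Uqcr11 (-0.29 ± 0.07, adjusted p = 0.00763), Cox6b2 (-1.02 ± 0.16, adjusted p = 0.000447) and Atp5a1, the alpha subunit of complex V (-0.10 ± 0.04, adjusted p = 0.0337). The Uqcr11 call was lost without DON replicate 2 (-0.19, adjusted p = 0.0744), and the Atp5a1 call without any 1 of the 4 libraries compared (-0.11 to -0.09). Sdhd, the gene of complex II that was higher (0.20 ± 0.05, adjusted p = 0.0111), lost its call without replicate 1 of the group without GM-CSF (0.14, adjusted p = 0.0812).

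Among the mitochondrial genes the largest difference from unstimulated cells was in mt-Cytb, with 1070 and 993 CPM with GM-CSF and DON, against 2660 and 2360 CPM without GM-CSF. It was 2.43-fold lower (-1.28 ± 0.09, adjusted p = 9.53e-07). mt-Nd4 fell by 0.81 ± 0.07 (adjusted p = 4.86e-06) and mt-Nd3 by 0.71 ± 0.05 (adjusted p = 6.23e-07). mt-Nd5 and mt-Nd6 fell by 0.63 and 0.56, and the others by 0.27 to 0.41. Smaller falls were less firm: mt-Co1 (-0.31 ± 0.07, adjusted p = 0.00485) lost its call without DON replicate 2 (-0.26, adjusted p = 0.0561), as did mt-Nd1 (-0.20, adjusted p = 0.12), which was also not called with DESeq2 (adjusted p = 0.0609). mt-Atp8 (-0.41 ± 0.13, adjusted p = 0.0249) lost its call with DESeq2 (adjusted p = 0.132), without either DON library (-0.44 and -0.38) and without replicate 1 of the group without GM-CSF (-0.32, adjusted p = 0.069).

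Several subunits are encoded by more than 1 gene, and these paralogues did not move alike. The c ring of complex V, through which protons flow, is made from 3 genes that yield the same mature protein. Atp5g1 had 63.2 and 57.8 CPM with GM-CSF and DON, 97.5 and 101 CPM with GM-CSF, and 63.7 and 63.6 CPM without GM-CSF. Atp5g3 had 146 and 131 CPM with GM-CSF and DON, 235 and 198 CPM with GM-CSF, and 131 and 140 CPM without GM-CSF. Both were highest with GM-CSF alone, and fell with DON against GM-CSF by 0.71 ± 0.06 (Atp5g1, adjusted p = 3.23e-06) and 0.64 ± 0.08 (Atp5g3, adjusted p = 8.69e-05). Atp5g2 had 243 and 251 CPM with GM-CSF and DON, 191 and 176 CPM with GM-CSF, and 159 and 161 CPM without GM-CSF. It was highest with DON (0.43 ± 0.05 against GM-CSF, adjusted p = 4.46e-05, and 0.63 ± 0.05 against no GM-CSF, adjusted p = 2.76e-06). Its rise with GM-CSF alone (0.20 ± 0.05, adjusted p = 0.0061) was not called without GM-CSF replicate 1 (0.14, adjusted p = 0.062). The ratio of Atp5g2 to Atp5g1 counts was 3.85 and 4.34 with GM-CSF and DON, 1.96 and 1.75 with GM-CSF, and 2.50 and 2.53 without GM-CSF, and these ranges did not overlap.

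In complex IV, Cox7a2 and the related Cox7a2l changed in opposite directions with GM-CSF and with DON against GM-CSF. The protein of Cox7a2l is known for joining complexes III and IV into supercomplexes, a role that some mouse strains lack. Cox7a2l had 186 and 180 CPM with GM-CSF and DON, 115 and 113 CPM with GM-CSF, and 140 and 143 CPM without GM-CSF. It fell with GM-CSF (-0.31 ± 0.04, adjusted p = 0.000192), while it rose with DON against GM-CSF (0.69 ± 0.04, adjusted p = 1.03e-06) and against no GM-CSF (0.37 ± 0.04, adjusted p = 5.23e-05). Cox7a2 had 89.4 and 82.3 CPM with GM-CSF and DON, 112 and 100 CPM with GM-CSF, and 65.1 and 64.5 CPM without GM-CSF, so that it rose with GM-CSF (0.71 ± 0.07, adjusted p = 8.33e-06), fell with DON against GM-CSF (-0.31 ± 0.06, adjusted p = 0.00232) and, like Cox7a2l, was higher with DON than without GM-CSF (0.40 ± 0.07, adjusted p = 0.000492). The ratio of Cox7a2l to Cox7a2 was 2.08 and 2.18 with GM-CSF and DON, 1.02 and 1.13 with GM-CSF, and 2.14 and 2.21 without GM-CSF. Thus the ratio was lowest with GM-CSF alone, and the ranges of the other groups overlapped. Cox7a1, the form of heart and skeletal muscle, stayed at or below 1.35 CPM and was not called in any comparison, although without replicate 1 of the group without GM-CSF it was called higher with GM-CSF (1.81, adjusted p = 0.015) and with GM-CSF and DON (1.91, adjusted p = 0.0116).

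The muscle form of another subunit was low but changed. Cox6a2, known from heart and skeletal muscle, had 7.55 and 5.99 CPM with GM-CSF and DON, 2.64 and 3.06 CPM with GM-CSF, and 0.707 and 0.446 CPM without GM-CSF. The 3 groups did not overlap. It rose 4.92-fold with GM-CSF (log2 fold change 2.30 ± 0.27, adjusted p = 4.62e-05) and again with DON against GM-CSF (1.25 ± 0.19, adjusted p = 0.000314). The muscle markers Ckm and Acta1 were at most 0.238 and 0.0671 CPM. An exon of Itgad overlaps 70 of the 680 exon bases of Cox6a2 on the opposite strand, and Itgad had 0.490 and 0.430 CPM with GM-CSF and DON, 0.117 and 0.269 CPM with GM-CSF, and 0.738 and 0.624 CPM without GM-CSF. Cox6a1, the widely expressed form, had 203 and 192 CPM with GM-CSF and DON, 206 and 199 CPM with GM-CSF, and 149 and 148 CPM without GM-CSF, so that Cox6a2 counts were at most 0.0372 of those of Cox6a1. The testis form Cox6b2 moved the other way: 2.62 and 3.29 CPM with GM-CSF and DON, 3.05 and 2.92 CPM with GM-CSF, and 6.49 and 5.53 CPM without GM-CSF (GM-CSF against no GM-CSF -1.01 ± 0.16, adjusted p = 0.000425). Cox4i1, the main form of subunit 4, had 274 and 255 CPM with GM-CSF and DON, 258 and 251 CPM with GM-CSF, and 231 and 241 CPM without GM-CSF. It was not called for GM-CSF (0.11 ± 0.05, adjusted p = 0.0794) or for DON against GM-CSF (0.06 ± 0.05, adjusted p = 0.349), though with the 2 groups fitted alone the first of these was called (0.13, adjusted p = 0.0319). For DON against no GM-CSF it was called higher (0.11 to 0.22 over all runs). That call was lost without DON replicate 1 (0.11) or replicate 1 of the group without GM-CSF (0.13). Ndufa4, now counted to complex IV, rose with GM-CSF (0.36 ± 0.05, adjusted p = 0.000208) and fell with DON against GM-CSF (-0.27 ± 0.05, adjusted p = 0.00128).

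**Figure D4:**
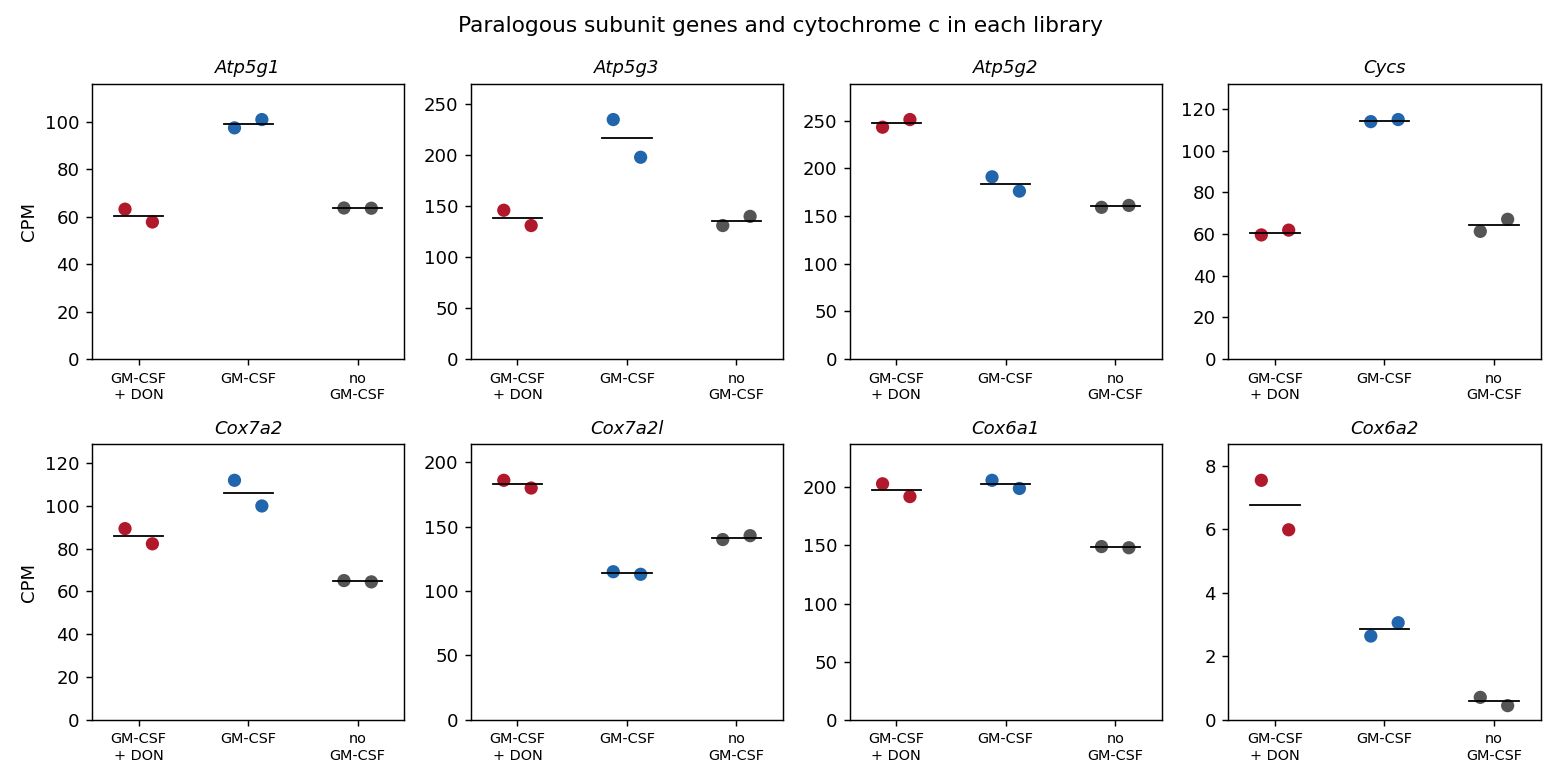
CPM per library (points) and group means (lines, 2 libraries) of the c-ring genes Atp5g1, Atp5g3 and Atp5g2, Cycs, and the complex IV pairs Cox7a2 and Cox7a2l, and Cox6a1 and Cox6a2; each axis starts at 0. Atp5g1, Atp5g3, Cycs and Cox7a2 are highest with GM-CSF alone, whereas Atp5g2, Cox7a2l and Cox6a2 are highest with GM-CSF and DON.

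Genes that build, supply or regulate the chain were taken from 10 lists with 175 entries that do not overlap the members. Their counts are to be read against the shares over all tested genes, of which 27.5% were higher and 29.3% lower with GM-CSF, and 28.8% higher and 28.8% lower with DON against GM-CSF. Of 23 subunits and electron donors outside the symbol rule, 15 were higher and 3 lower with GM-CSF (median 0.33), and 5 were higher and 10 lower with DON against GM-CSF (median -0.09). Cyc1, the cytochrome c1 of complex III, had 76.0 and 74.5 CPM with GM-CSF and DON, 113 and 109 CPM with GM-CSF, and 69.1 and 69.6 CPM without GM-CSF. Adck3 (Coq8a), which acts in ubiquinone synthesis, went against this order, with 5.59 and 6.45 CPM with GM-CSF and DON, 1.38 and 1.71 CPM with GM-CSF, and 5.60 and 6.03 CPM without GM-CSF (1.97 ± 0.17 for DON against GM-CSF, adjusted p = 6.55e-06). Carriers, import and membrane genes were higher in 23 and lower in 3 of 32 with GM-CSF, and higher in 7 and lower in 18 with DON against GM-CSF (medians 0.30 and -0.18). Among them Timm50, of the import machinery, rose by 0.68 and fell by 0.70 in these comparisons (adjusted p = 2.62e-06 and 2.92e-06). Ucp2, a carrier named for uncoupling, had 965 and 916 CPM with GM-CSF and DON, 1370 and 1270 CPM with GM-CSF, and 2390 and 2260 CPM without GM-CSF.

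Of 17 complex IV assembly factors, 6 (35.3%) were higher and 1 lower with GM-CSF, and 5 were higher and 4 lower with DON against GM-CSF (medians 0.09 and 0.07). Oxa1l, which inserts mitochondrially made proteins into the inner membrane, had 96.2 and 97.5 CPM with GM-CSF and DON, 49.6 and 48.4 CPM with GM-CSF, and 65.4 and 64.3 CPM without GM-CSF. It rose with DON against GM-CSF by 0.98 ± 0.05 (adjusted p = 1.93e-07). Surf1, a complex IV assembly factor, rose with DON by 0.62 ± 0.07 (adjusted p = 2.92e-05), and Acn9 (Sdhaf3), which acts on complex II, by 1.41 ± 0.16 (adjusted p = 4.36e-05). Of 8 complex I assembly genes, 2 (25.0%) were higher and 2 (25.0%) lower with GM-CSF, near the shares over all genes, and 2 were higher with DON against GM-CSF (medians 0.11 and 0.02). Of 8 for complexes II and III, 3 were higher with GM-CSF, and 2 higher and 1 lower with DON (medians 0.14 and -0.06). Of 6 partners of complex V, 4 were higher and 1 lower with GM-CSF, and 3 lower with DON (medians 0.36 and -0.17). The gene that was lower with GM-CSF was Atpif1, the inhibitor of the ATP synthase, with 131 and 112 CPM with GM-CSF, against 151 and 168 CPM without it (-0.39 ± 0.08, adjusted p = 0.00181).

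Genes acting on the mitochondrial genome were listed beside the fall of its mRNAs. Of 8 genes of mitochondrial transcription, 4 were higher and 1 lower with GM-CSF, and 4 higher and 1 lower with DON against GM-CSF (medians 0.23 and 0.15). With DON against no GM-CSF, 6 (75.0%) were higher (median 0.31), beside 27.2% over all tested genes. For GM-CSF, the calls of Tfb1m and Tfb2m (higher) and Mterfd2 (lower) were lost with DESeq2 (adjusted p = 0.15, 0.0931 and 0.109). For DON against GM-CSF, those of Tfb1m and Polrmt (higher) were lost with DESeq2 (adjusted p = 0.0626 and 0.0851). For DON against no GM-CSF, that of Mrpl12 (higher) was lost with DESeq2 (adjusted p = 0.0881). Tfam, which packages and transcribes mitochondrial DNA, had 22.7 and 24.2 CPM with GM-CSF and DON, 22.5 and 22.7 CPM with GM-CSF, and 18.9 and 18.8 CPM without GM-CSF (GM-CSF against no GM-CSF 0.26 ± 0.07, adjusted p = 0.00799). Polrmt, the mitochondrial RNA polymerase, had 23.4 and 21.7 CPM with GM-CSF and DON, 20.2 and 17.5 CPM with GM-CSF, and 16.8 and 16.4 CPM without GM-CSF. Neither was called lower in any comparison. Of 19 genes of mitochondrial RNA processing and stability, 9 were higher and 2 lower with GM-CSF, and 2 higher and 9 lower with DON against GM-CSF (medians 0.21 and -0.17). Among them Tbrg4 fell with DON by 0.50 ± 0.05 (adjusted p = 2.77e-05), the ribosomal protein gene Ptcd3 by 0.55 ± 0.07 (adjusted p = 6.65e-05) and Fastkd5, known in human cells for cutting mitochondrial RNA at junctions without a tRNA, by 0.53 ± 0.11 (adjusted p = 0.00243). How genes of this list relate to the levels of mitochondrial mRNAs was not tested. With DON against GM-CSF, Pde12 was at -0.50 to -0.48 and Pnpt1 at -0.42 to -0.40 over all runs. Lrpprc, which stabilises mitochondrial mRNAs, was not called (-0.17 ± 0.09, adjusted p = 0.112), but was called lower when either library without GM-CSF was left out of the fit (adjusted p = 0.0218 and 0.0216). Of 14 genes of mitochondrial DNA replication and nucleotide supply, 3 (21.4%) were higher and 5 (35.7%) lower with GM-CSF, and 5 (35.7%) higher and 3 (21.4%) lower with DON (medians -0.11 and 0.08). These shares were not far from those over all genes. The deoxynucleoside kinases Dguok and Tk2 rose with DON against GM-CSF by 1.01 ± 0.08 (adjusted p = 3.95e-06) and 0.96 ± 0.07 (adjusted p = 1.85e-06). Both were lower with GM-CSF than without it, at -0.68 to -0.53 and -0.80 to -0.69 over all runs. For DON against no GM-CSF they were at 0.37 to 0.44 and 0.16 to 0.27, and Tk2 was not called with DESeq2 (adjusted p = 0.0602). The Tk2 call was also lost without DON replicate 2 (0.16) or replicate 1 of the group without GM-CSF (0.16). The polymerase gene Polg fell with GM-CSF by 0.52 ± 0.06 (adjusted p = 5.69e-05).

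Of 17 nuclear regulators of respiratory genes, 5 were higher and 5 lower with GM-CSF (29.4% each), and 4 higher (23.5%) and 5 lower (29.4%) with DON against GM-CSF (medians 0.04 and -0.06). These shares were near those over all genes. Ppargc1b, a coactivator of mitochondrial gene expression, had 3.64 and 4.58 CPM with GM-CSF and DON, 10.8 and 11.0 CPM with GM-CSF, and 4.15 and 4.49 CPM without GM-CSF. It rose with GM-CSF (1.33 ± 0.13, adjusted p = 1.04e-05), fell with DON against GM-CSF (-1.40 ± 0.13, adjusted p = 1.03e-05) and was at overlapping levels with DON and without GM-CSF. Nrf1, the gene of the factor whose motif is printed above, had 17.8 and 18.2 CPM with GM-CSF and DON, 23.5 and 24.4 CPM with GM-CSF, and 17.5 and 18.6 CPM without GM-CSF (0.40 ± 0.07 for GM-CSF, adjusted p = 0.000659, and -0.41 ± 0.07 for DON against GM-CSF, adjusted p = 0.000656). Gabpa rose by 0.22 ± 0.05 (adjusted p = 0.00496) and fell by 0.23 ± 0.05 (adjusted p = 0.00336) in the same comparisons. Esrra, a nuclear receptor that acts with Ppargc1b, fell with GM-CSF (-0.40 ± 0.07, adjusted p = 0.000615). Epas1 also fell with GM-CSF, with log2 fold changes of -1.37 to -1.23 over all runs. With DON against GM-CSF, Epas1 was at -0.02 to 0.13. In the same 2 comparisons Gabpb1 was at 0.18 to 0.30 and 0.02 to 0.14, and Hcfc1 at 0.11 to 0.51 and -0.86 to -0.64. Myc fell with DON against GM-CSF by 0.58 ± 0.06 (adjusted p = 2.64e-05).

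Limits of counting bear on some members. The strand setting is not given in the sources used here, so reads of overlapping genes on opposite strands cannot be told apart. In the GENCODE annotation, at least 20 nuclear members share exon bases with a gene of the table on the opposite strand. Among them are Ndufb5 with Mrpl47, Ndufa11 with Vmac, Atp5j with Gabpa and Cox4nb with Cox4i1. Partners were matched by their GENCODE symbol, so those under an older symbol in the table were missed. Cox4i1, which shares 154 bases with Cox4nb (Emc8), is therefore not among the 20. In mitochondrial DNA mt-Atp8 and mt-Atp6 overlap by 43 bases, mt-Nd5 and mt-Nd6 by 14 on opposite strands, and mt-Atp6 and mt-Co3 by 1. For mt-Nd6 the limit is wider than these bases, since mitochondrial DNA is copied into long RNAs that cover many genes. Without the strand setting, counts over its whole length cannot be told apart from RNA of the other strand. Many nuclear chain genes, Cycs among them, and mitochondrial DNA itself have near-identical nuclear copies, and how reads that fit several places were counted is not given in the sources used here. Whether the libraries were made from polyadenylated RNA is likewise not given, and mitochondrial mRNAs carry short tails.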

How the data were processed

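RNA was sequenced from 6 libraries in 3 groups of 2, assigned from the treatment labels and titles. The deposited count table holds whole-number counts per gene symbol made by the authors, and their second deposited table holds FPKM. The submitters' processing notes name the mm10 build and the tools featureCounts, DESeq2 1.28.1, Subread 1.4.6 and STAR 2.6.0a. The role of each tool and the annotation were not given there. No column of per-sample values was left unused.

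Counts were analysed with edgeR 4.0.16 in R 4.3.3: filterByExpr (minimum count 10), TMM scaling, 1 coefficient per group over all 6 libraries, and quasi-likelihood contrasts, two-sided, with Benjamini-Hochberg adjustment over 12340 genes and a threshold of 0.05. The fit had 3 residual and 6.74 prior degrees of freedom and a common biological coefficient of variation of 0.0501. The fitting code was tested on simulated counts. Errors are SE for log2 fold changes and SD otherwise. CPM use TMM-scaled library sizes and, like other measured values, are rounded to 3 significant digits, except sums over genes. FPKM were used for levels between genes and as an alternative for the mitochondrial share. Total counts per library limit precision for the low members only, and they cover counting error only. Gene positions come from GENCODE vM21 (GRCm38) and promoters from RefSeq (GRCm38.p6). No row of the count table has the symbol mt-Nd4l, so this gene could not be analysed here.

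Named genes were all mitochondrial members, the 2 largest rises and falls per complex and comparison among called nuclear subunit genes with at least 10 CPM, all paralogues, the Sdh genes, up to 4 genes with the smallest adjusted p per list and a fixed set of regulators. Fastkd5, Atp5sl, Cox4nb, Ndufaf3, Ndufa6 and the partner Itgad were named after their values were seen. The members and lists were chosen with earlier results of these data known. Alternatives were RLE scaling, scaling without mitochondrial genes, no filter, DESeq2 1.42.0, a replicate block, the 2 groups alone and leaving out each library. Tables and figures used Python 3.11.15 and matplotlib 3.10.9.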

Additional observations from a re-analysis of the deposited data

How the results depend on the processing

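The count of nuclear members higher minus lower was 54 for GM-CSF against no GM-CSF, -38 for DON against GM-CSF and 38 for DON against no GM-CSF, and kept its sign under every alternative run. Leaving out 1 library gave 49 to 55, -43 to -29 and 17 to 37, the lowest of these without DON replicate 1. The same count over mitochondrial members was -10 and -12 for GM-CSF and for DON against no GM-CSF, with -11 to -8 and -12 to -9 when 1 library was left out. For DON against GM-CSF it was -2, which was -1 with the replicate block and -4 to 5 when 1 library was left out. It turned to 5 without GM-CSF replicate 1, -4 without GM-CSF replicate 2, and -1 without either DON replicate. Also without GM-CSF replicate 1, mt-Atp8 was called higher with DON (0.23, adjusted p = 0.0345), against -0.06 with all libraries and a range of -0.30 to 0.23 when 1 was left out; the cause was not tested. The median of nuclear minus mitochondrial members was 0.71 to 0.96, -0.35 to -0.14 and 0.52 to 0.63 in the 3 comparisons when 1 library was left out, the last highest without replicate 2 of the group without GM-CSF. From FPKM sums the mean mitochondrial share was 74.1% with GM-CSF and DON, 71.3% with GM-CSF and 81.5% without GM-CSF, against 75.2%, 70.7% and 82.4% from counts. Leaving out 1 library gave 75.1% to 75.4%, 69.4% to 72.0% and 81.9% to 82.9%. Counts of called genes stayed within 1.5 times under each alternative. With 1 library left out, the lone library is assumed to vary like the other groups.

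Replicate numbers did not pair the libraries: correlations of same-numbered deviations over 8164 genes were 0.068 (DON and GM-CSF), -0.048 (GM-CSF and no GM-CSF) and -0.311 (DON and no GM-CSF). With the replicate block, 6708, 6882 and 6542 genes were called in the 3 comparisons, against 7014, 7111 and 6859 without it, and the counts of nuclear members higher minus lower were 54, -37 and 35. Among the mitochondrial and named nuclear members the block changed 3 calls: mt-Co2 was called higher with DON against GM-CSF (0.17, adjusted p = 0.0347), and Atp5a1 (-0.10, adjusted p = 0.0512) and Uqcr10 (0.16, adjusted p = 0.0587) were no longer called for DON against no GM-CSF. With 2 libraries a group, the SE of about 0.08 (median over genes) limits the smallest log2 differences that could be called, and Cox7a1 and Cox6a2 have few counts.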
